A study of Mus musculus with 10 samples.

Results

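The 46 genes described here carry out mitosis. They comprise 10 kinases, phosphatases and cyclins of mitotic entry, 9 genes of the spindle checkpoint, the anaphase-promoting complex (APC/C) and anaphase onset, 4 genes of the chromosomal passenger complex, 7 of the centromere and kinetochore, 8 kinesins, 5 of spindle assembly, midzone and cytokinesis, the topoisomerase gene Top2a, and the transcription factor genes Foxm1 and Mybl2. They were taken from a list of gene names that was chosen with earlier results of these data known. All 46 were on the array, among 27218 gene names, and all 46 were well above background on all 10 arrays and entered the tests with 14437 genes in all.

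Total RNA was measured on 10 one-colour Agilent arrays, 2 for each of 5 groups. The leukemias were B cell acute lymphoblastic leukemias (B-ALL) from lymph nodes of mice 686, 713 and 760, which were Ebf1+/- Pax5+/- (dHet). The dHet pro-B cells are labelled Ebf1+/- Pax5+/- Rag2-/- and were grown from c-Kit-positive fetal liver cells over an OP9 stromal layer, with stem cell factor, IL-7 and Flt3L added. The wt pro-B cells (Ebf1+/+ Pax5+/+) were Fraction BC cells sorted from bone marrow of control mice. A culture is given for the dHet pro-B cells alone, and only they are labelled Rag2-/-. The Rag2 probe did not bear out that label. It was well above background on both arrays of the cells labelled Rag2-/- and higher there than in wt pro-B cells, by 0.66 ± 0.17 (SE) on the log2 scale (adjusted p = 0.0249 in limma). Whether this probe lies in the deleted part of the gene, without which it checks nothing, is not given in the sources used here. The leukemias and the dHet pro-B cells share the Ebf1 and Pax5 genotype, and each leukemia is 1 mouse. Ages were not given, nor whether the replicates of a group were separate animals, cultures or labellings, so a p-value may measure technical spread alone.

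Cells enter mitosis when cyclin-dependent kinase 1, bound to B-type cyclins, is switched on by Cdc25 phosphatases. Kinetochores then bind spindle microtubules, and the spindle checkpoint holds back the APC/C until every chromosome is attached. The APC/C next destroys securin and cyclin B, separase cuts cohesin, and the midzone guides cytokinesis. Most of these genes are transcribed late in the cell cycle, under the MuvB core complex with B-Myb (Mybl2) and Foxm1, so that their RNA in a cell population follows in part how many cells are in G2 and mitosis. In pro-B cells IL-7 drives division, whereas V(D)J recombination takes place in cells that have paused it.

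Levels are log2 processed signals minus the 75th percentile of the array, so that 0 is that percentile. Levels of different probes cannot be set against each other. A gene was read at its brightest probe, such as chr10:68805423-68807832 (mm9, minus strand, across introns) for Cdk1, chr2:131024109-131024165 (plus) for Cdc25b and chr11:43233801-43233860 (minus) for Pttg1. Changes are differences of group means on that log2 scale with the limma standard error (SE), called at an adjusted p under 0.05 over all genes tested. Ebf1 was at 1.56 to 2.30 on the 6 leukemia arrays, against 2.84 and 2.89 in dHet pro-B cells and 3.11 and 2.99 in wt pro-B cells. Its difference between leukemias and wt was -1.05 (adjusted p = 0.00174). Pax5 was well above background on 2 of the 6 leukemia arrays, those of mouse 713 at -2.54 and -3.28, against -1.40 and -1.67 in dHet pro-B cells and -0.30 and -0.67 in wt pro-B cells. No fold is given for Pax5, since it was not well above background in leukemias 686 and 760. Between 35.7% (replicate 1 of leukemia 686) and 52.4% of probes were well above background. The leukemia replicate 1 arrays shared slide 1, their replicate 2 arrays slide 2, and all 4 pro-B arrays slide 3, and an effect of the slide cannot be told apart from the contrast of leukemias with pro-B cells. Of 12 pro-B marker genes, 11 were well above background on all leukemia arrays and all 12 on all pro-B arrays, with Rag2 not well above background on 1 leukemia array. T cell markers well above background on all arrays of a group numbered 10 of 15 in the leukemias, 7 in dHet pro-B cells and 9 in wt pro-B cells. Their summed signal, in multiples of the array's 75th percentile, was 16.8 to 71.1 on the leukemia arrays, against 12.1 and 15.7 in dHet pro-B cells and 12.2 and 11.4 in wt pro-B cells. Cd4, Trac and Cd28 were not well above background on any array, whereas Cd3d, Cd8a and Cd8b1 were on all 6 leukemia arrays. Cd8a and Cd8b1 were also well above background on both wt pro-B arrays, and Cd3d on 1 array of each pro-B group. Cd8a was at -2.44 and -2.28 in wt pro-B cells, beside -2.25 and -2.54 in leukemia 760 and -1.48 to -0.85 in 686 and 713. The summed pro-B markers were at 1331 to 1957 in the leukemias, 2845 and 2586 in dHet pro-B cells and 1944 and 1984 in wt pro-B cells. Summed NK cell markers were at 22.5 to 46.3 in the leukemias, 19.8 and 17.7 in dHet pro-B cells and 3.12 and 3.93 in wt pro-B cells, and erythroid markers at 1.16 to 88.0, against 0.37 and 0.25 in dHet pro-B cells and 1.55 and 2.09 in wt pro-B cells. Myeloid markers were at 17.6 to 155 in the leukemias, 41.2 and 39.2 in dHet pro-B cells and 99.9 and 178 in wt pro-B cells. Stromal markers were at 5.65 to 36.9 in the leukemias, against 6.41 and 7.65 in dHet pro-B cells and 5.90 and 4.76 in wt pro-B cells. Thy1 is in both the stromal and the T cell list. In leukemia 760, at log2 levels of 5.15 and 4.76, it made up most of the stromal sum. Together with Lck (4.82 and 4.18) it made up most of the T cell sum there. Col1a1, Pdgfra, Pdgfrb, Cxcl12, Lum and Lyve1 were not well above background on any array. Of 15 myeloid markers tested, 2 were called higher and 7 lower in leukemias against wt, and 2 higher and 10 lower in dHet against wt pro-B cells. The part of such cells in the results below was not tested, and in bulk RNA more dividing cells and more RNA per dividing cell cannot be told apart.

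The promoters are shown first because most members share a sequence feature. Of the 46, 39 had a window of 300 bases, from 250 before to 50 after a start annotated by RefSeq (GRCm38.p6). Some genes have several starts, so that 42 windows were searched. Aurkb, Ccna2, Cdc25c, Foxm1, Incenp, Kif20a and Tpx2 had none in the table used. The cell cycle genes homology region (CHR), which the MuvB core binds, was searched as TTTGAA or TTCGAA on both strands, and the NF-Y box as CCAAT on both strands. A CHR match lay in the window of 30 of the 39 genes (76.9%), against 21.7% of 27025 genes with a window. From 100 bases before the start onwards it lay in 29 of the 39 (74.4%), against 9.87% of all. A CCAAT match was present in 29 (74.4%), against 41.1%, and both motifs in 25 (64.1%), against 8.61%. The E2F motif, searched as TTTCGCGC, TTTGGCGC, TTTCCCGC or TTTGCCGC, was found in 2 members, Cdk1 and Kif15 (5.13%, against 2.61% of all genes), and TATAAA in 1, Kif2c (2.56%, against 15.7%). A gene whose matches overlap was counted under each motif. No CHR match was found in the windows of Birc5, Ccnb1, Cenpe, Cenph, Mad2l1, Mybl2, Nek2, Nuf2 and Pttg1.

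CHR matches gathered at the start itself. In 14 of the 39 genes a match began within the 25 bases that follow the start, and in 8 within the 25 bases before it, where 1.68% and 1.73% of all genes had one. CCAAT matches lay farther upstream, with 15 of 39 genes having one that began 75 to 51 bases before the start, against 8.21% of all genes. A match is a string of letters, not a tested binding site.

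**Figure D1:**
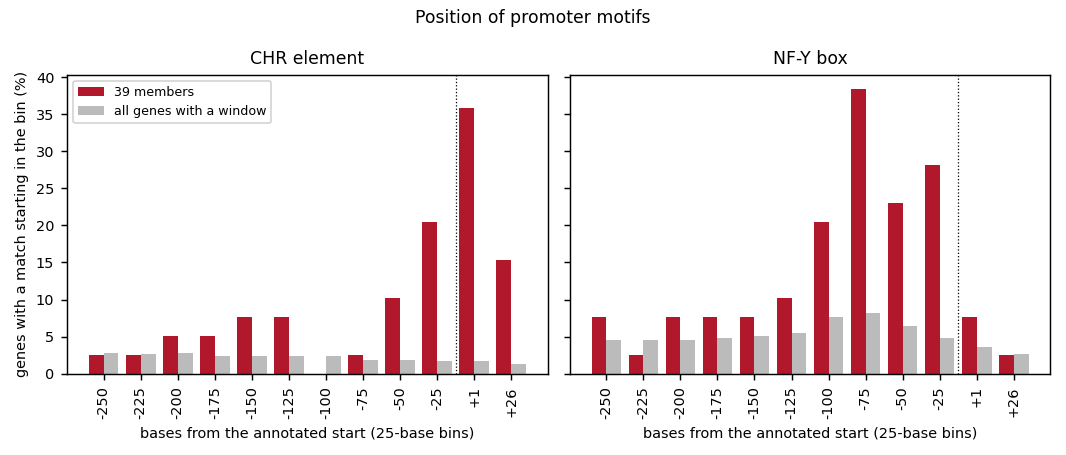
Share of genes (%) with a CHR match (left) or an NF-Y box match (right) that begins in each 25-base bin, by distance in bases from the annotated start (dotted line). Red bars are the 39 members with a promoter window and grey bars all genes with one, and the CHR bars of the members are tallest in the bin after the start (35.9%) and the NF-Y bars in the bin from 75 bases before it (38.5%).

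Printed here, 5′ to 3′ on the gene's strand, are 120 bases before the start of Cdk1 (chr10:69352913-69353032, minus), the member with the largest rise against wt pro-B cells. The same stretch is shown for Cdc20 (chr4:118437344-118437463, minus), Ube2c (chr2:164769809-164769928, plus), Espl1 (chr15:102296173-102296292, plus), Kif11 (chr19:37376262-37376381, plus) and Top2a (chr11:99024190-99024309, minus). Cdc20, Ube2c and Espl1 are genes of the checkpoint, the APC/C and anaphase, Kif11 is a kinesin gene and Top2a the topoisomerase gene. No gene of the passenger complex, the centromere and kinetochore, or spindle assembly, midzone and cytokinesis is printed, nor a transcription factor gene. For Cdc25b (chr2:131186848-131186967, plus), the member that fell, 100 bases before and 20 after the start are shown, since its CHR match begins 8 bases after the start. Mad2l1 (chr6:66535101-66535220, plus) and Pttg1 (chr11:43425982-43426101, minus) are shown as members with neither motif in the window. Capitals mark CHR and CCAAT matches on either strand, so that TTCAAA and ATTGG are the same motifs read on the other strand.
Cdk1: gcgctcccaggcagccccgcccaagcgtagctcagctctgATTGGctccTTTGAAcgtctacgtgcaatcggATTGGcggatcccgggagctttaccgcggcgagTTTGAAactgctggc
Cdc20: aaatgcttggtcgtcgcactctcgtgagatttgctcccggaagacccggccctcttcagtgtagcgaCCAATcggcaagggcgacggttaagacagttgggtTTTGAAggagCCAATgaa
Ube2c: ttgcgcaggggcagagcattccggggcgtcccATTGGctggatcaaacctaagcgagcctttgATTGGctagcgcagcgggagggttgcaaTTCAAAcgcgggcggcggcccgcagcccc
Espl1: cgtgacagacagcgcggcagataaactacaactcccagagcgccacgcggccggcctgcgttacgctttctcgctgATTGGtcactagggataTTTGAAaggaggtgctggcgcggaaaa
Kif11: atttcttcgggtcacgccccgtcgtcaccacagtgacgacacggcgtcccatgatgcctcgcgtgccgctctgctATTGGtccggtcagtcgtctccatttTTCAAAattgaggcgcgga
Top2a: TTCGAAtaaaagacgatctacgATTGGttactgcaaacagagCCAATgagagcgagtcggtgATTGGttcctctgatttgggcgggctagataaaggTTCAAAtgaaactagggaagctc
Cdc25b: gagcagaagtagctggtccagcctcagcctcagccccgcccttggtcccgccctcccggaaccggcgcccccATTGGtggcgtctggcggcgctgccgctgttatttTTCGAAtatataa
Mad2l1: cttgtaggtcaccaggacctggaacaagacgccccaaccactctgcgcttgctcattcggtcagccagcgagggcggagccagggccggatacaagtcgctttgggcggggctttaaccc
Pttg1: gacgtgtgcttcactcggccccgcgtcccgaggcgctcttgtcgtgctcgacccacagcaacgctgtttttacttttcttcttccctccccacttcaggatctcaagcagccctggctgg

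The leukemias were compared with wt pro-B cells, from which they also differed in Ebf1 and Pax5 genotype, organ of origin and slide. These differences and malignancy cannot be told apart in this comparison. Of the 46 genes, 43 were higher in the leukemias, 1, Cdc25b, was lower, and 2, Cenpa and Pttg1, did not pass the test. Over all genes tested, 31.3% were called higher and 27.5% lower in this comparison. Since the members were chosen with earlier results of these data known, their excess over such shares is no independent test. The median difference of the 46 was 1.52, beside 0.06 for all genes tested, and 37 members were at least 2-fold higher, as were 18.6% of all genes. All 6 leukemia arrays lay above both wt arrays for 42 members, as for 31.9% of all genes, and below both for Cdc25b, as for 27.7%. The mean level of the 46 was 2.64 to 2.99 on the leukemia arrays, 2.52 and 2.59 in dHet pro-B cells, and 1.17 and 1.55 in wt pro-B cells. Between the wt arrays, replicate 2 was above replicate 1 for 44 of the 46, by a median of 0.37. With the slide as a random block 37 members rose and Cdc25b fell.

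**Figure D2:**
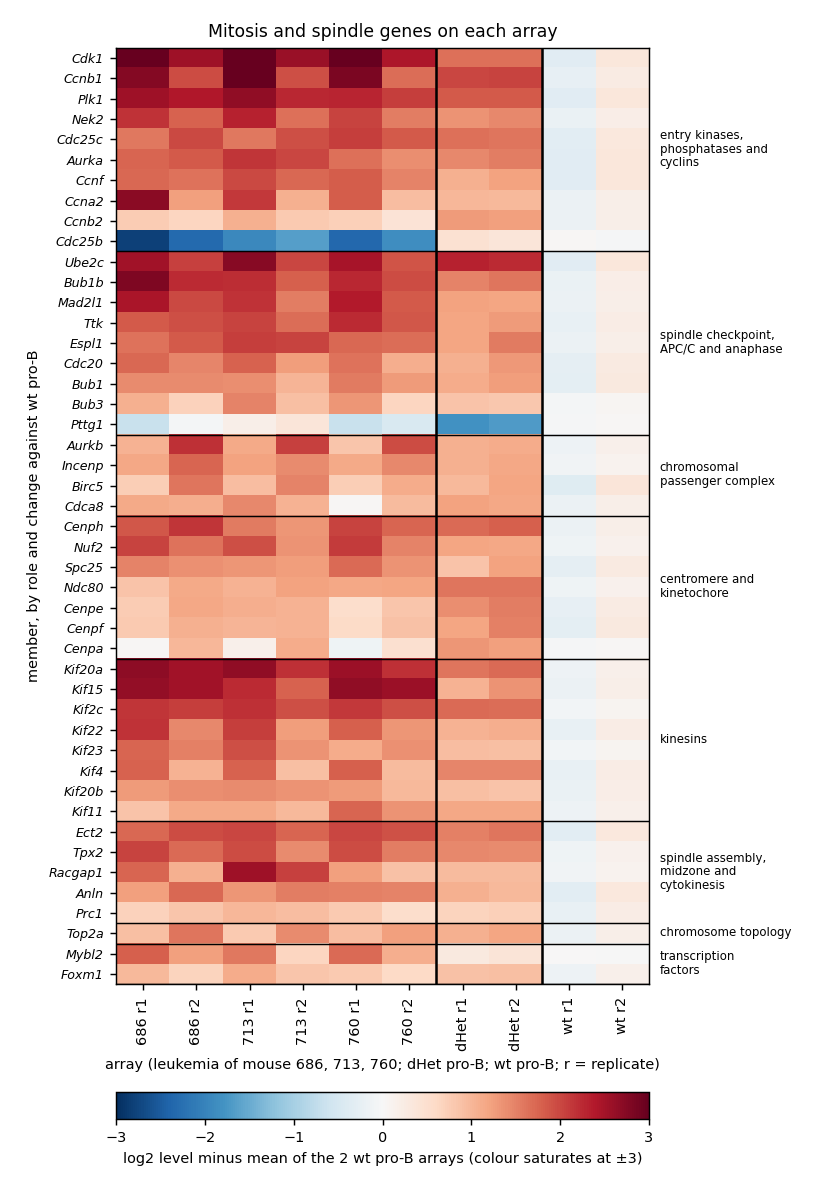
Log2 level of each of the 46 genes minus the mean of the 2 wt pro-B arrays, by array (columns: leukemias of mice 686, 713 and 760, then dHet pro-B and wt pro-B cells, r the replicate) and by role (rows). Nearly all rows are red in the leukemias and in dHet pro-B cells, the Cdc25b row is blue in the leukemias alone, and the Pttg1 row is blue in dHet pro-B cells.

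Among the genes of mitotic entry, 9 of 10 rose, with a median of 1.81 over the 10. Cdk1, the mitotic kinase, was at 3.72 and 3.05 in leukemia 686, 3.66 and 3.09 in 713 and 3.54 and 2.93 in 760, against 2.15 and 2.15 in dHet pro-B cells and 0.16 and 0.86 in wt pro-B cells. Every leukemia array was above every pro-B array. Its difference from wt was 2.82 ± 0.22 (SE), a 7.08-fold rise with an adjusted p of 0.000421, the largest among the members. Ccnb1, the B-type cyclin that activates Cdk1, was at 2.79 and 2.01 in leukemia 686, 3.28 and 1.98 in 713 and 2.87 and 1.71 in 760, against 2.03 and 2.08 in dHet pro-B cells and -0.22 and 0.30 in wt pro-B cells. The leukemias spanned the dHet arrays and lay above the wt arrays, and the difference from wt was 2.40 ± 0.20. Plk1, the polo-like kinase that promotes entry, was at 5.26 and 5.11 in leukemia 686, 5.38 and 4.98 in 713 and 4.99 and 4.78 in 760, against 4.55 and 4.55 in dHet pro-B cells and 2.38 and 3.04 in wt pro-B cells. All leukemia arrays were the highest, and the difference from wt was 2.37 ± 0.23.

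The Aurora kinase gene Aurka rose by 1.79 ± 0.26 and Nek2, a kinase of centrosome separation, by 1.91 ± 0.16. Ccnf, whose product is an F-box protein, rose by 1.73 ± 0.22 and Ccna2, cyclin A2, by 1.64 ± 0.22. The other B-type cyclin, Ccnb2, rose less, by 0.73 ± 0.17.

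The Cdc25 phosphatases, which remove inhibitory phosphates from cyclin-dependent kinases, moved in opposite directions. Cdc25b was at 2.74 and 3.20 in leukemia 686, 3.61 and 3.89 in 713 and 3.18 and 3.68 in 760, against 5.99 and 5.92 in dHet pro-B cells and 5.57 and 5.51 in wt pro-B cells. The groups did not overlap, and every leukemia array was far below the pro-B arrays. It fell by 2.16 ± 0.24 against wt pro-B cells (adjusted p = 0.000985), or 4.47-fold. Cdc25c was at -0.53 and -0.13 in leukemia 686, -0.54 and -0.18 in 713 and -0.04 and -0.29 in 760, against -0.47 and -0.53 in dHet pro-B cells and -2.44 and -1.80 in wt pro-B cells. The leukemias and dHet cells overlapped, both above wt, and the rise against wt was 1.84 ± 0.21.

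Of the 9 genes of the checkpoint, the APC/C and anaphase, 8 rose, with a median of 1.83 over the 9. Ube2c, the ubiquitin-conjugating enzyme of the APC/C, was at 4.64 and 4.16 in leukemia 686, 4.85 and 4.11 in 713 and 4.58 and 4.01 in 760, against 4.41 and 4.35 in dHet pro-B cells and 1.77 and 2.45 in wt pro-B cells. The leukemias overlapped with dHet cells and not with wt cells. Ube2c rose by 2.28 ± 0.22 against wt. Bub1b (BubR1), an inhibitor of the APC/C within the checkpoint, was at 3.41 and 2.84 in leukemia 686, 2.82 and 2.40 in 713 and 2.86 and 2.55 in 760, against 2.10 and 2.22 in dHet pro-B cells and 0.40 and 0.80 in wt pro-B cells. No group overlapped with another, and the rise against wt was 2.21 ± 0.21. Mad2l1, its partner in the checkpoint complex, rose by 2.06 ± 0.18, Ttk, the checkpoint kinase Mps1, by 1.93 ± 0.17 and Espl1, separase, by 1.83 ± 0.21. Cdc20, the APC/C activator that the checkpoint restrains, was at 5.76 and 5.49 in leukemia 686, 5.81 and 5.28 in 713 and 5.66 and 5.12 in 760, against 5.10 and 5.34 in dHet pro-B cells and 3.78 and 4.30 in wt pro-B cells. The leukemias overlapped with dHet cells and lay above wt cells, and the rise against wt was 1.48 ± 0.20. Bub1, the kinetochore kinase, rose by 1.35 ± 0.21 and Bub3, its binding partner, by 1.02 ± 0.14.

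Pttg1, which encodes securin, the inhibitor of separase, did not follow. It was at 2.99 and 3.60 in leukemia 686, 3.84 and 4.03 in 713 and 2.99 and 3.21 in 760, against 1.86 and 1.98 in dHet pro-B cells and 3.63 and 3.70 in wt pro-B cells. The leukemias thus spanned the wt arrays and lay above the dHet arrays. The difference from wt was -0.22 ± 0.26 (adjusted p = 0.492). Without mouse 713 it was -0.47 and passed the test (adjusted p = 0.0259).

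All 4 genes of the chromosomal passenger complex, which corrects faulty attachments and later marks the midzone, rose. Aurkb, its kinase, was at 0.83 and 1.98 in leukemia 686, 0.92 and 1.84 in 713 and 0.62 and 1.74 in 760, against 0.84 and 0.89 in dHet pro-B cells and -0.36 and -0.07 in wt pro-B cells. Its 2 arrays differed by about as much within each mouse, with replicate 2 the higher, and the rise against wt was 1.54 ± 0.15. Birc5 (survivin) was at 5.60 and 6.48 in leukemia 686, 5.79 and 6.37 in 713 and 5.60 and 5.99 in 760, against 5.85 and 6.06 in dHet pro-B cells and 4.51 and 5.23 in wt pro-B cells. The 2 wt arrays were the lowest, and the rise against wt was 2.15-fold (SE 0.24 on the log2 scale, adjusted p = 0.0109). Incenp, the scaffold, rose by 1.35 ± 0.13 and Cdca8 (borealin) by 0.95 ± 0.26, although the leukemia arrays of Cdca8 overlapped with wt.

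At the centromere and kinetochore 6 of 7 genes rose, with a median of 1.09. Cenph, of the inner kinetochore, was at 2.78 and 3.06 in leukemia 686, 2.46 and 2.24 in 713 and 2.95 and 2.66 in 760, against 2.61 and 2.71 in dHet pro-B cells and 0.75 and 1.08 in wt pro-B cells. Leukemias and dHet cells overlapped, with wt cells lowest, and the rise against wt was 1.78 ± 0.21. Ndc80, the microtubule-binding subunit of the outer kinetochore, was at 0.97 and 1.24 in leukemia 686, 1.15 and 1.32 in 713 and 1.29 and 1.30 in 760, against 1.71 and 1.71 in dHet pro-B cells and -0.02 and 0.26 in wt pro-B cells. The leukemias lay between the dHet and the wt arrays without overlap. Ndc80 rose by 1.09 ± 0.14 against wt, while its complex partners Nuf2 and Spc25 rose by 1.75 ± 0.14 and 1.41 ± 0.21. Cenpe, a kinetochore motor, and Cenpf, a kinetochore protein of G2 cells, rose by 0.90 ± 0.21 and 0.89 ± 0.23. Cenpa, the histone H3 variant of centromeres, was at 1.65 and 2.61 in leukemia 686, 1.76 and 2.72 in 713 and 1.50 and 2.09 in 760, against 2.93 and 2.84 in dHet pro-B cells and 1.59 and 1.65 in wt pro-B cells. The replicate 1 arrays lay near the wt arrays and the replicate 2 arrays above them. The difference from wt, 0.43 ± 0.17, had an adjusted p of 0.0683. It passed the test with array medians (1.00, adjusted p = 0.00543), with scan day as a block (0.85, adjusted p = 0.00101) and with only genes well above background on all arrays (0.43, adjusted p = 0.0478). It also passed without replicate 1 of leukemia 760 (0.53, adjusted p = 0.0163) and without mouse 760 (0.56, adjusted p = 0.0158). Over the leukemia arrays of the second scan day, a choice added after the data were seen, it was 0.85 (adjusted p = 0.0184), the same estimate as with scan day as a block. It did not pass with quantile normalization, the authors' values, the percentile of probes detected on all arrays, the slide as a random block or the replicate block.

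All 8 kinesins rose, with a median of 1.59. Kif20a, a motor of the midzone, was at 4.79 and 4.61 in leukemia 686, 4.75 and 4.29 in 713 and 4.67 and 4.29 in 760, against 3.70 and 3.80 in dHet pro-B cells and 1.95 and 2.24 in wt pro-B cells. The 3 groups did not overlap, and the rise against wt was 2.47 ± 0.15. Kif15, a motor that helps to keep the spindle bipolar, was at 0.74 and 0.61 in leukemia 686, 0.35 and -0.13 in 713 and 0.76 and 0.66 in 760, against -0.85 and -0.55 in dHet pro-B cells and -2.07 and -1.73 in wt pro-B cells. The 3 groups did not overlap, and the rise against wt was 2.40 ± 0.24. Kif2c, the microtubule depolymerase MCAK, rose by 2.07 ± 0.12, the chromosome-binding motors Kif22 and Kif4 by 1.68 ± 0.17 and 1.37 ± 0.16, and Kif23 of the midzone by 1.50 ± 0.17. Kif20b rose by 1.28 ± 0.17 and Kif11 (Eg5), which pushes the spindle poles apart, by 1.20 ± 0.21.

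The 5 genes of spindle assembly, midzone and cytokinesis all rose. Ect2, which activates RhoA at the cleavage furrow, was at 2.44 and 2.68 in leukemia 686, 2.73 and 2.47 in 713 and 2.71 and 2.63 in 760, against 2.23 and 2.33 in dHet pro-B cells and 0.40 and 1.03 in wt pro-B cells. The leukemias were above both pro-B groups, and the rise against wt was 1.90 ± 0.20. Tpx2, a spindle assembly factor that activates Aurora A, rose by 1.77 ± 0.13, Racgap1, of the midzone centralspindlin complex, by 1.59 ± 0.36, Anln (anillin) by 1.46 ± 0.20 and Prc1, a microtubule crosslinker of the midzone, by 0.80 ± 0.18.

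Top2a, which untangles sister chromatids, was at 2.67 and 3.37 in leukemia 686, 2.54 and 3.19 in 713 and 2.68 and 2.98 in 760, against 2.83 and 2.95 in dHet pro-B cells and 1.59 and 1.93 in wt pro-B cells. The leukemias spanned the dHet arrays, with wt cells lowest, and the rise against wt was 1.14 ± 0.15. The transcription factor genes that drive the programme rose too. Mybl2 was at 3.38 and 2.82 in leukemia 686, 3.16 and 2.22 in 713 and 3.29 and 2.66 in 760, against 1.87 and 1.97 in dHet pro-B cells and 1.59 and 1.57 in wt pro-B cells. All leukemia arrays were above all pro-B arrays, and the rise against wt was 1.34 ± 0.16. Foxm1 was at 1.74 and 1.43 in leukemia 686, 1.88 and 1.60 in 713 and 1.55 and 1.37 in 760, against 1.64 and 1.68 in dHet pro-B cells and 0.62 and 0.93 in wt pro-B cells. Leukemias and dHet cells overlapped, both above wt cells, and the rise against wt was 0.82 ± 0.15.

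Without wt replicate 1, Birc5, Ccnb2, Cdca8, Cenpe, Cenpf, Foxm1, Prc1 and Racgap1 no longer passed, and 35 members rose. Of the 30 members with a CHR match in the window 28 rose and 1 fell, with a median of 1.47, and of the 9 without one 8 rose, with a median of 1.75.

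**Figure D3:**
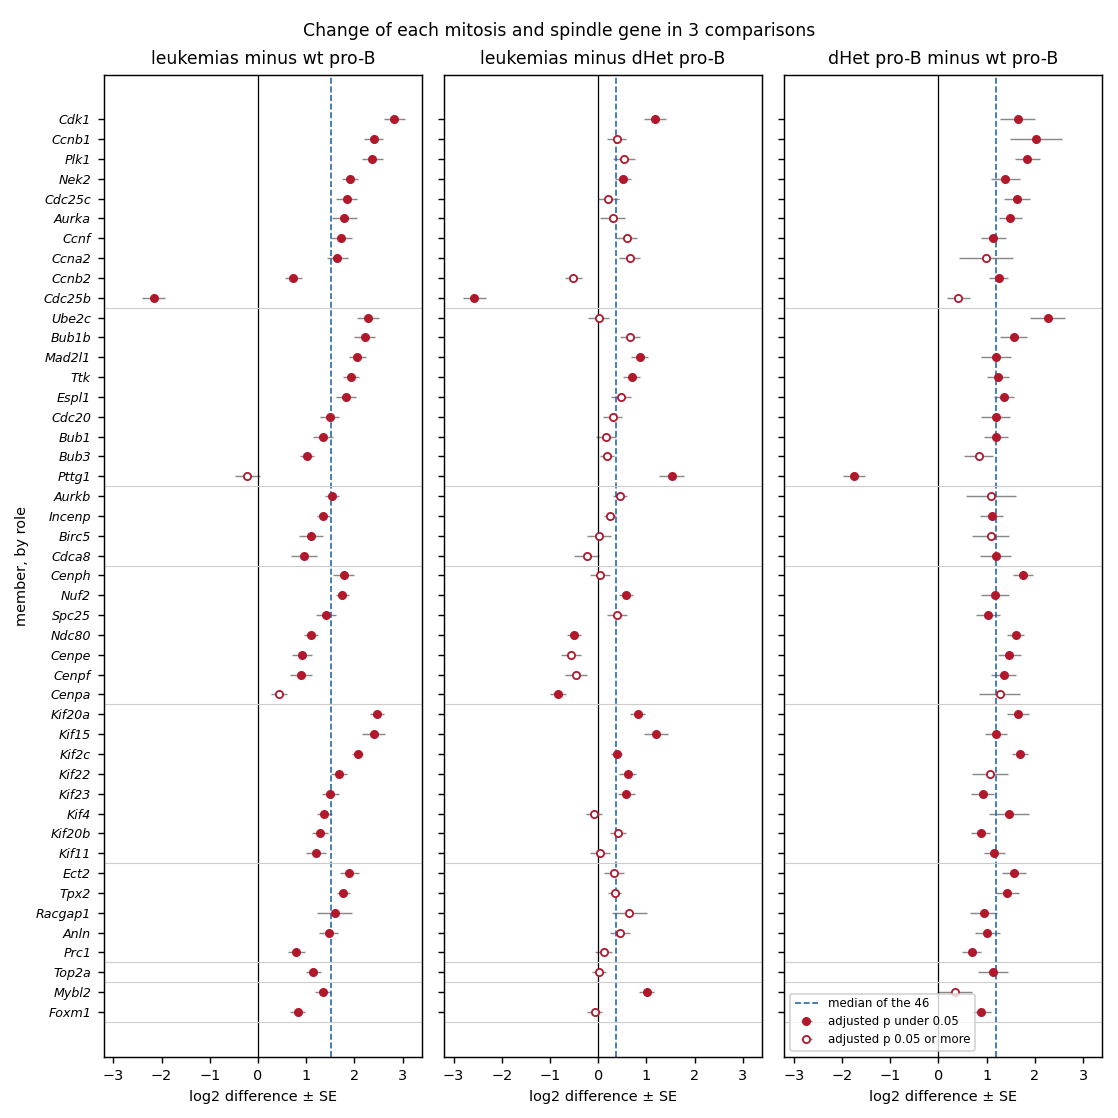
Log2 difference ± SE of each gene in 3 comparisons (panels), genes by role in the same order from top to bottom. Filled points had an adjusted p under 0.05, open points did not, and the dashed line is the median of the 46, at 1.52 for leukemias against wt pro-B cells, 0.36 for leukemias against dHet pro-B cells and 1.19 for dHet against wt pro-B cells.

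The leukemias were next compared with dHet pro-B cells, which carry the same Ebf1 and Pax5 genotype and came from culture with IL-7. The 2 differed in the Rag2 label, in organ of origin (lymph node against fetal liver), in culture and in slide. These differences and malignancy cannot be told apart in this comparison. Of the 46 genes 12 were higher in the leukemias, 3 were lower and 31 did not pass the test. Over all genes tested, 21.7% were called higher and 24.4% lower. The 12 of 46 called higher lay near that share, so that count is no result about the 46, and the 3 called lower lay below theirs. The median difference of the members was 0.36, beside -0.06 for all genes. All 6 leukemia arrays were above both dHet arrays for 20 members and below both for 6, as for 24% and 26.1% of all genes. These counts depended on single libraries: 1 rose and 1 fell without dHet pro-B replicate 1, 4 rose and 1 fell without dHet pro-B replicate 2, and 4 rose and 2 fell without replicate 1 of leukemia 713. With the slide as a random block, Pttg1 and Kif15 rose and Cdc25b fell. The split of calls also moved with the scaling: 14 rose and 1 fell with array medians, 7 rose and 5 fell with the percentile of probes detected on all arrays, and 8 rose and 5 fell with quantile normalization.

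Pttg1 rose most, by 1.53 ± 0.26 (adjusted p = 0.00649), with every leukemia array above both dHet arrays by the levels given above. Without dHet pro-B replicate 1 its adjusted p was 0.0525. Cdk1 rose by 1.18 ± 0.22 (adjusted p = 0.00858), Kif15 by 1.20 ± 0.24 (adjusted p = 0.0111) and Mybl2 by 1.00 ± 0.16 (adjusted p = 0.0049). The others that rose were Mad2l1 (0.86 ± 0.18), Kif20a (0.82 ± 0.15), Ttk (0.69 ± 0.17), Kif22 (0.61 ± 0.17), Kif23 (0.59 ± 0.17), Nuf2 (0.57 ± 0.14), Nek2 (0.52 ± 0.16) and Kif2c (0.38 ± 0.12). By role, 5 of 8 kinesins and 3 of 9 genes of the checkpoint, the APC/C and anaphase rose. Among these kinesins is Kif15, which was lower at an upstream probe, as given below.

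Cdc25b fell by 2.57 ± 0.24, or 5.95-fold (adjusted p = 0.00117). Cenpa fell by 0.83 ± 0.17 (adjusted p = 0.0107) and Ndc80 by 0.50 ± 0.14 (adjusted p = 0.0308), so that of the 7 centromere and kinetochore genes 1 rose and 2 fell. Neither fall passed with array medians, at -0.62 for Cenpa (adjusted p = 0.0518) and -0.29 for Ndc80 (adjusted p = 0.362). Nor did they with the slide as a random block (adjusted p = 0.144 and 0.195). Over the leukemia arrays of the second scan day the difference of Cenpa was -0.41 (adjusted p = 0.164). In limma 0 of 4 genes of the passenger complex and 0 of 5 of spindle assembly, midzone and cytokinesis passed the test, with 1 of each at an unadjusted p under 0.05. Ube2c (0.01 ± 0.22), Top2a (0.02 ± 0.15), Birc5 (0.02 ± 0.24), Foxm1 (-0.07 ± 0.15) and Ccnb1 (0.38 ± 0.20) were among the 31 without a call. Aurkb (0.45 ± 0.15, adjusted p = 0.0505) and Bub1b (0.66 ± 0.21, adjusted p = 0.0505) were closest to the threshold.

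**Figure D4:**
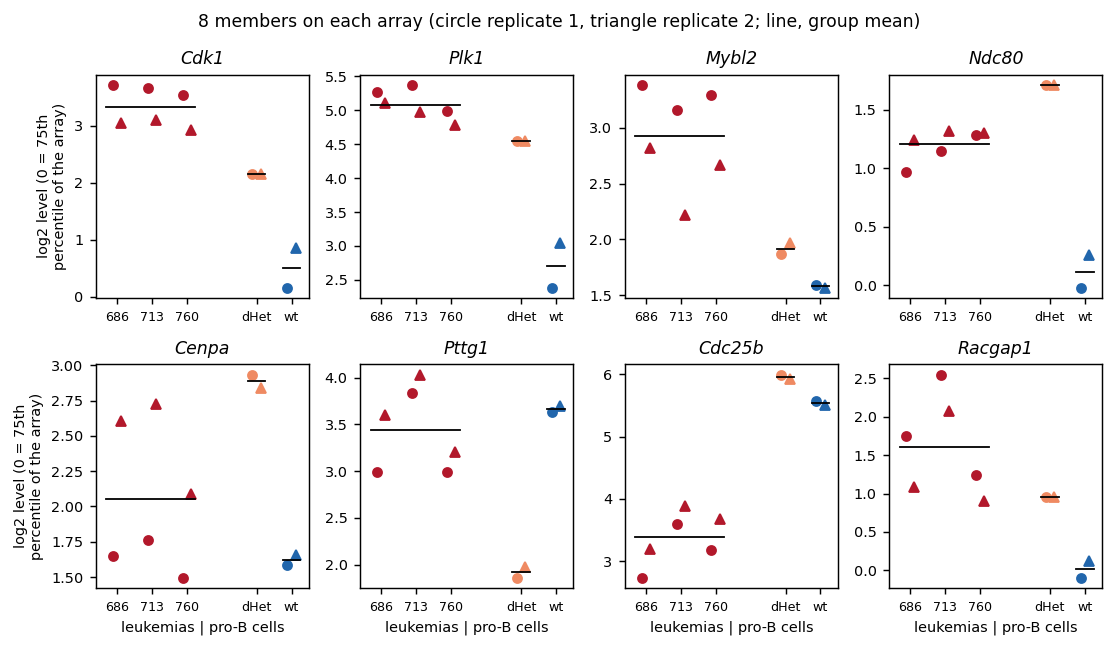
Log2 level on each array of 8 members, with 0 the 75th percentile of the array; circles are replicate 1 and triangles replicate 2 of the leukemias of mice 686, 713 and 760, dHet pro-B cells and wt pro-B cells, and lines are group means. Cdk1 and Mybl2 are highest in the leukemias, Ndc80 and Cenpa in dHet pro-B cells, Cdc25b is low in the leukemias alone, Pttg1 is low in dHet pro-B cells alone, and Racgap1 is highest in leukemia 713.

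The dHet and wt pro-B cells differed in labelled genotype, in organ of origin and in culture, which cannot be told apart, and the level of Rag2 did not bear out the Rag2-/- label at its probe. Both lay on slide 3. In dHet pro-B cells 37 of the 46 genes were higher than in wt pro-B cells, 1, Pttg1, was lower and 8 did not pass. Over all genes tested, 16.7% were called higher and 14.8% lower. The median of the members was 1.19, beside 0.13 for all genes. Both dHet arrays were above both wt arrays for 45 members and below both for Pttg1, as for 48.6% and 35.5% of all genes. The comparison has 2 arrays a group: 19 members rose without dHet pro-B replicate 1, 15 without dHet pro-B replicate 2 and 14 without wt pro-B replicate 1, with Pttg1 lower each time. With no filter on dim probes, 18 rose.

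The largest rises were those of Ube2c (2.27 ± 0.36, adjusted p = 0.00355), Ccnb1 (2.02 ± 0.54, adjusted p = 0.0281) and Plk1 (1.84 ± 0.26, adjusted p = 0.00208). Cdk1 rose by 1.64 ± 0.37. At the kinetochore, where 6 of 7 genes rose, Cenph rose by 1.74 ± 0.21 and Ndc80 by 1.60 ± 0.18. Pttg1 fell by 1.75 ± 0.23, or 3.36-fold (adjusted p = 0.00163). Cdc25b (0.41 ± 0.24), Mybl2 (0.34 ± 0.36), Cenpa (1.27 ± 0.42), Aurkb (1.08 ± 0.52), Birc5 (1.09 ± 0.38), Kif22 (1.07 ± 0.37), Ccna2 (0.98 ± 0.56) and Bub3 (0.83 ± 0.30) did not pass. The SE pooled the spread within all 5 groups, and the leukemia arrays of a mouse lay on different slides. With the slide as a fixed block 44 members rose and 1 fell, as did 4595 and 3307 of all genes. In that limma fit Cenpa (adjusted p = 0.00056) and Cdc25b (adjusted p = 0.0167) passed.

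Set side by side, these comparisons share their control arrays, so their calls are not independent. The share of all genes with each joint pattern of calls was not computed, so the counts that follow are no result about the members. A missing call does not show equal levels. Calls against dHet pro-B cells depended on single libraries, as given above. For 27 members the leukemias and the dHet pro-B cells were both called higher than wt, with no call between leukemias and dHet cells. For 9 (Cdk1, Kif15, Kif20a, Kif23, Kif2c, Mad2l1, Nek2, Nuf2 and Ttk) the leukemias were also higher than dHet cells. For Ndc80 they were lower than dHet cells, a call that was lost with array medians. Kif22 and Mybl2 were higher in the leukemias than in either pro-B group, with no call between the pro-B groups. Aurkb, Birc5, Bub3 and Ccna2 had a call only for leukemias against wt. Calls between the pro-B groups are those of the fit without a slide block, and with the slide as a fixed block 44 members rose there. Cdc25b was lower in the leukemias than in both.

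Among the leukemias the means of the 3 mice spanned 0.28 at the median over the 46 genes, beside 0.55 over all genes tested, with a range of 0.06 (Kif4) to 1.24 (Racgap1). Racgap1 alone among the members spanned more than 1, as did 26.4% of all genes. Leukemia 713 was highest for 20 members, 686 for 18 and 760 for 8, while 760 was lowest for 28. Over all genes 713 was highest for 37.6%, 686 for 28.6% and 760 for 33.8%, and 760 was lowest for 34.2%. Each leukemia was tested against the mean of the other 2, with the spread taken between arrays and not between mice. No member was called in leukemia 686, where 1.74% of all genes were higher and 2.53% lower, nor in leukemia 760, where 5.34% were higher and 6.63% lower. In leukemia 713, 2 were higher and 0 lower, where 8.88% and 6.48% of all genes were called. At an unadjusted limma p under 0.05, 0 members were higher and 1 lower in leukemia 686, 3 higher and 2 lower in 713, and 1 higher and 3 lower in 760.

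Racgap1 was at 2.55 and 2.07 in leukemia 713, against 1.75 and 1.09 in 686 and 1.24 and 0.90 in 760. Both arrays of 713 were above all 4 of the others. The difference was 1.06 ± 0.24 (adjusted p = 0.0263), and it was 1.05 on slide 1 and 1.08 on slide 2. For Pttg1, whose levels are given above, the difference was 0.74 ± 0.20 (adjusted p = 0.0492), with 0.85 on slide 1 and 0.63 on slide 2. Leaving out single arrays took both below the threshold, including either array of leukemia 713.

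Same-numbered leukemia arrays shared a slide and deviated together, and taking the replicate number as a block left these counts at 0, 2 and 0. With the slide as a fixed block, Cdc25b (0.55, adjusted p = 0.00597) was also higher in leukemia 713 and Kif15 (-0.59, adjusted p = 0.0318) was lower there. In that fit Cdc25b was lower in leukemia 686 (-0.62, adjusted p = 0.00918), and Racgap1 (-0.79), Pttg1 (-0.52) and Cenpa (-0.39) were lower in leukemia 760. Kif11 was at 2.04 and 1.65 in leukemia 760, against 1.16 and 1.44 in 686 and 1.44 and 1.28 in 713, a difference of 0.52 ± 0.18 (adjusted p = 0.140). Cenph was at 2.46 and 2.24 in leukemia 713, against 2.78 and 3.06 in 686 and 2.95 and 2.66 in 760, a difference of -0.51 ± 0.18 (adjusted p = 0.112). Cdca8 had 1 array apart, at 4.31 for replicate 1 of leukemia 760 and 5.24 to 5.73 on the other leukemia arrays.

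The 2 arrays of a leukemia differed between slides in a way that the mice shared. For 32 of the 46 members replicate 1 minus replicate 2 had the same sign in all 3 mice, as it had for 65.7% of all genes. Replicate 1 was the higher in 23 of them and replicate 2 in 9, among them Aurkb, Birc5, Incenp, Cenpa, Top2a, Pttg1 and Cdc25b. Ccna2, which was at 5.51 and 4.04 in leukemia 686, 4.92 and 3.87 in 713 and 4.64 and 3.73 in 760, differed most on average over the mice. Ccnb1 differed by more in mice 713 (1.30, against 1.05 for Ccna2) and 760 (1.16, against 0.91).

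The place of a probe along its transcript moved with the comparison. Of the 46 members, 13 had kept probes of 1 RefSeq transcript that lay 500 bases or more apart. Against wt pro-B cells the probe farther from the 3′ end gave a lower difference than the nearer one in 9 of the 13, with a median gap of -0.47, as in 66.4% of 3202 genes with such probes (median gap -0.32). Against dHet pro-B cells it did so in 10 of 13 (median gap -0.25), as in 66.1% of all such genes (-0.27). Between dHet and wt pro-B cells it did so in 8 of 13 (-0.11), as in 53.8% of all (-0.03).

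The gap was widest for the dim upstream probes of Kif15, Ect2 and Kif11, which, taken alone, gave other calls. Kif15 differed from wt by 2.40 ± 0.24 at its probe near the 3′ end and by 0.07 ± 0.26 at a probe 3809 bases upstream. From dHet pro-B cells it differed by 1.20 ± 0.24 and by -0.93 ± 0.26 (adjusted p = 0.0309) at those probes. Ect2 differed from wt by 1.90 ± 0.20 and by -0.06 ± 0.35 at a probe 2079 bases upstream, and Kif11 by 1.20 ± 0.21 and by -0.16 ± 0.21 at a probe 3462 bases upstream. From dHet pro-B cells the upstream probes differed by -1.40 ± 0.35 for Ect2 and -1.04 ± 0.21 for Kif11. The fall of Cdc25b was seen at both ends, by 2.16 ± 0.24 near the 3′ end and by 2.98 ± 0.34 at a probe 1962 bases upstream, against wt. With the farthest probe for these 13 members, 38 of 46 rose against wt, and against dHet pro-B cells 11 rose and 7 fell. The bearing of RNA quality or of transcript isoforms on this gap was not tested.

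**Figure D5:**
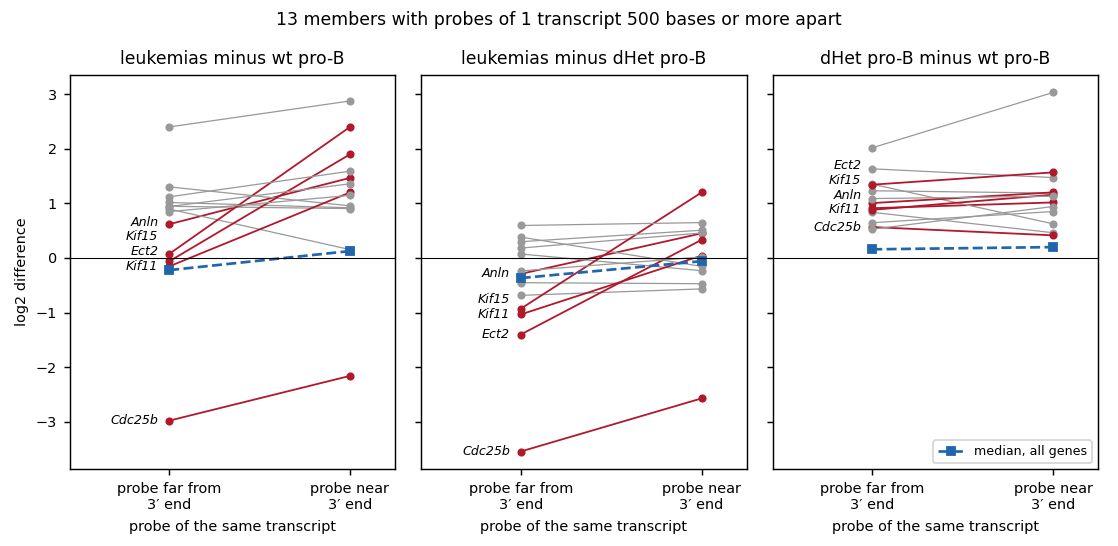
Log2 difference at 2 probes of the same transcript, far from and near to the 3′ end, for 13 members, in 3 comparisons (panels); 5 genes are drawn in red and named, and the blue dashed line joins the medians of all genes with such probes. Against wt and against dHet pro-B cells the lines of Kif15, Ect2 and Kif11 climb steeply toward the 3′ end, and between dHet and wt pro-B cells they are nearly flat.

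Over the 20 members with several kept probes, counted whatever their transcript, another probe did not pass where the main probe did for 8 against wt, 1 against dHet pro-B cells and 11 between the pro-B groups. It passed in the opposite direction against wt for Bub1, Bub3 and Kif23 and against dHet pro-B cells for Kif15. The opposing probes of Bub1, Bub3 and Kif23 were designed on another transcript record than the brightest probe and were dimmer. The other 26 members rested on a single kept probe, Pttg1, Mybl2, Cdk1 and Cenpa among them, and 21 members had only 1 probe on the array.

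Other mitotic genes were followed in 6 lists, of which 118 of 119 genes were tested. These lists, too, were chosen with earlier results of these data known. Against wt pro-B cells 88 were higher (74.6%, beside 31.3% of all genes), 4 lower (3.39%, beside 27.5%) and 26 without a call in the leukemias, with a median of 0.97. Against dHet pro-B cells 19 were higher (16.1%, beside 21.7%) and 8 lower (6.78%, beside 24.4%), with a median of 0.13. Both of these shares lay below those of all genes. In dHet against wt pro-B cells 55 were higher (46.6%, beside 16.7%) and 2 lower (1.69%, beside 14.8%), with a median of 0.76. Of the 28 other kinetochore and centromere genes 24 rose against wt, most of all Ska3 (2.36 ± 0.18), which helps kinetochores to hold on to microtubules. Of 26 other spindle, centrosome and cytokinesis genes 22 rose, most of all the septin gene Sept9 (2.42 ± 0.24), and Kif24 fell (-0.93 ± 0.22).

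Condensin and cohesin genes rose in 13 of 18 cases, with Ncapg of condensin I at 1.48 ± 0.18, and in limma 0 were called against dHet pro-B cells, with 1 higher and 1 lower at an unadjusted p under 0.05. Other APC/C genes and inhibitors rose in 11 of 16 cases, by up to 1.19 ± 0.18 for the APC/C subunit gene Cdc26. Other entry genes rose in 9 of 11 cases, by up to 2.01 ± 0.18 for Bora, the activator of Aurora A toward Plk1. Of the 19 genes of the DREAM and MuvB complexes that were tested 9 rose and 3 fell, with a median of 0.34. Tfdp1, the dimerization partner of E2F proteins, rose by 2.57 ± 0.24, whereas E2f2 fell by 2.97 ± 0.35.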

How the data were processed

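Total RNA was hybridised to Cy3 one-colour Agilent arrays, 10 in 5 groups of 2. The authors deposited scanner files with the processed signal intensity of each spot, background-subtracted and detrended within the array, per the file headers, which name Feature Extraction 10.5.1.1 and place probes on mm9. Per the submitters' processing notes the version was 9.1. The authors also deposited a table of normalized log2 values, used as an alternative. It matched 41174 probes, and its exact normalization is not given in the sources used here.

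From the intensities, spots of a probe were averaged, and log2 levels were taken minus each array's 75th percentile. A probe was kept where every array of some group had it well above background (22301 of 41174). Each gene was read at its brightest probe and entered the tests only if that probe was kept. Fits used limma 3.58.1 in R 4.3.3 with data.table (version 1.17.8). Leukemias were compared with pro-B cells over 7 samples, with each mouse's 2 arrays averaged (4 residual degrees of freedom). The contrast between pro-B groups and those of a single leukemia with the remaining pair came from 1 fit to the 10 arrays (5 residual degrees of freedom). p-values were Benjamini-Hochberg adjusted over 14437 genes, with a threshold of 0.05. The fits were run on simulated data with independent noise on each array and no shared slide effect or spread between mice. Their error rates in these data, where arrays of a slide deviate together, were therefore not measured. The number of arrays limits the precision, and no spot was saturated.

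Same-numbered leukemia arrays, which share a slide, deviated together from their group means (correlations 0.53, 0.44 and 0.63). Between other groups the correlations were -0.03 to 0.08, so the numbers pair the leukemia arrays only.

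The 46 members and all gene lists were chosen with earlier results of these data known. All members are named. Values on every array are given for a fixed set of members, for the largest changes of each role and comparison, and for members that go against their role. Of the other mitotic lists, the largest passing change against wt in each direction is named. Alternatives were other scalings, filters, probe choices, blocks and left-out samples, and 2 were added after the data were seen.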

Additional observations from a re-analysis of the deposited data

Results flagged for a closer look

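Among the 46 genes, 2 differed between the leukemias by a test of the difference itself, both higher in leukemia 713, where 8.88% of all genes were called higher, so that the count is no result about the 46. Racgap1, a centralspindlin subunit, was higher in leukemia 713 than in the mean of 686 and 760, by 1.0628 on the log2 scale (SE 0.2416, adjusted p = 0.0263 in limma). Both of its arrays were above all 4 others. Without replicate 1 of leukemia 713 the difference of Racgap1 was 0.8263 (adjusted p = 0.146), and without replicate 2 it was 1.2993 (adjusted p = 0.0528).

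Pttg1, securin, was higher in leukemia 713 by 0.7402 (SE 0.2007, adjusted p = 0.0492). Without replicate 1 of leukemia 713 the difference of Pttg1 was 0.8374 (adjusted p = 0.111), and without replicate 2 it was 0.643 (adjusted p = 0.228). By the same test, which called 8.88% of all genes higher and 6.48% lower in leukemia 713, markers of other cells moved too: 3 of 11 T cell markers were higher and 1 lower, 3 of 7 NK cell markers higher and 1 lower, 2 of 5 erythroid markers higher and 0 lower, 2 of 7 stromal markers higher and 1 lower, and 3 of 15 myeloid markers higher and 5 lower. Their part in the differences of Racgap1 and Pttg1 was not tested.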

How the results depend on the processing

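Over the alternatives the median of the 46 genes ranged from 1.13 to 2.08 for leukemias against wt pro-B cells, 0.19 to 0.57 against dHet pro-B cells and 0.94 to 1.54 for dHet against wt pro-B cells. Array medians moved the median of all genes against wt to 0.63, and the percentile of detected probes to -0.30, beside 0.06.

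Against dHet pro-B cells 7 members rose with the percentile of detected probes, 6 with no filter and 2 with the slide as a random block. The members that fell numbered 1 with array medians, 5 with the percentile of detected probes, quantile normalization, normexp, the authors' values, the all-arrays filter or scan day as a block, 1 with slide as a random block, 6 with the replicate block and 7 with the probe farthest from the 3′ end. Between the pro-B groups 18 rose with no filter, 42 with the replicate block and 44 with slide or scan day as a block.

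In leukemia 713, 1 member was higher with array medians, the percentile of detected probes, quantile normalization, the mean of probes, every probe or the farthest probe, and 0 with no filter. Members lower there numbered 1 with the percentile of detected probes, slide as a fixed block or scan day, and 2 with normexp, the authors' values or slide as a random block. In leukemia 686, 1 was lower with any of these 3 blocks. In leukemia 760, 1 was lower with the percentile of detected probes, 2 with slide as a random block and 3 with slide or scan day as a fixed block. The replicate block, which pairs the leukemia arrays by slide, left the counts among leukemias at 0, 2 and 0. The cause of these shifts was not tested.

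Leaving out single arrays or mice gave 35 to 44 members higher and 1 to 2 lower against wt, 1 to 13 higher and 1 to 4 lower against dHet pro-B cells, 14 to 40 higher and 1 lower between the pro-B groups, 0 to 2 higher in leukemia 713 and 0 to 1 lower in leukemia 760.

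Values changed sign for Kif11 against dHet pro-B cells with the mean of probes (-0.50). At the farthest probe they did so for Ect2 (-0.063) and Kif11 (-0.16) against wt, and for Ect2 (-1.40), Kif11 (-1.04) and Kif15 (-0.93) against dHet pro-B cells. The values against wt did not pass the test (adjusted p = 0.887 for Ect2 and 0.545 for Kif11 in limma), so that the rise was lost there and no fall was called.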
